A study of Mus musculus with 21 samples.

Results

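The 7 genes followed here mark the earliest steps of lymphocyte development, and Dntt, Rag1, Rag2, Il7r, Ccr9, Notch1 and Satb1 were measured in 7 fractions of mouse bone marrow. Members were chosen by name; probes were assigned to a gene through their RefSeq accession, and the brightest probe of each gene was used. All 7 genes had a probe (11 probes in all) among 18217 genes and 41174 probes on the array. The chosen probes of 6 members entered the test; that of Rag2 was not well above background on any array and is given as values only.

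Transcripts were hybridised to 1-colour arrays, 3 for each fraction and 21 in all, from C57BL/6 mice that carried no named allele and received no named agent; the labels give no age. KLS were lineage-negative, Kit-positive, Sca1-positive cells. On the erythroid side PreMegE were gated as CD150-positive, CD105-negative and FcgRII/III-negative, CFUe as negative for CD150, CD105 and the Fc receptors, and Ter119 as CD71-positive and Ter119-positive. On the myeloid side PreGM were gated as negative for CD150, CD105 and the Fc receptors, GMP as CD150-negative and Fc receptor-positive, and Mac1Gr1 as positive for Mac1 and Gr1. The labels give CFUe and PreGM the same markers and write sca1+ for all 4 intermediate fractions, so the gates as written do not separate CFUe from PreGM. The lineage cocktail held B220, CD3, CD4, CD8, CD41, Mac1, Gr1 and Ter119; for Ter119 and Mac1Gr1 the labels name only the 2 antigens that were selected for. Nothing in the labels says that the 3 arrays of a fraction came from separate mice, so p-values measure the spread between these samples, which may be technical.

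As background, lymphocytes assemble their antigen receptor genes by V(D)J recombination, in which the RAG1-RAG2 recombinase cuts the DNA and terminal deoxynucleotidyl transferase, the product of Dntt, adds untemplated bases at the joins. The interleukin-7 receptor carries survival and growth signals to lymphoid precursors, NOTCH1 signalling commits precursors to the T lineage, the chemokine receptor CCR9 guides cells to the thymus and gut, and SATB1 organises chromatin in thymocytes and other blood cells. Some of these transcripts are present in multipotent progenitors before commitment, which is called lymphoid priming. Rag1 and Rag2 are neighbours on mouse chromosome 2 (GRCm38.p6, 101638252 to 101649532 and 101624712 to 101632528), and are transcribed towards each other.

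Short motifs of factors that act in blood progenitors were searched on both strands of the 250 bases before each annotated start. They were the E-box bound by E proteins, CAGGTG, and the site of PU.1 and other ETS factors, GGAAGTG. The letters used for Ikaros were TGGGAA, and those used for the RUNX family were TGTGGT. The GATA site was searched as AGATAA. The site of RBPJ, the partner of Notch in the nucleus, was searched as CGTGGGAA, which overlaps the Ikaros letters. Promoters are shown for the 3 members with a single annotated start and a match, Dntt with a pattern led by KLS and PreGM, and Rag1 and Ccr9 with the pattern led by Ter119. Sequences are RefSeq's, on the strand of the gene, with the matches in capitals, and lie on GRCm38.p6 at chr19:41029025-41029274 (plus strand, Dntt), chr2:101649533-101649782 (minus strand, Rag1) and chr9:123766961-123767210 (plus strand, Ccr9).
Dntt: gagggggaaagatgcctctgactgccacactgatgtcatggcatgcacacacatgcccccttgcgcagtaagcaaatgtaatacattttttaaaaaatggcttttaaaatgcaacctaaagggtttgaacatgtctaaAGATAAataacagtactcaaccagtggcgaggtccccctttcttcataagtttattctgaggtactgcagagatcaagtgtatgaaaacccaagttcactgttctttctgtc
Rag1: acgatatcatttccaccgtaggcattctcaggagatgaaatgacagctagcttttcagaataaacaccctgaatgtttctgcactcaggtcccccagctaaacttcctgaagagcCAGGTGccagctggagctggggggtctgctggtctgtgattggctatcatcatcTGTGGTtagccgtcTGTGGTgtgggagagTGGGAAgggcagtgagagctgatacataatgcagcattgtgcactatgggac
Ccr9: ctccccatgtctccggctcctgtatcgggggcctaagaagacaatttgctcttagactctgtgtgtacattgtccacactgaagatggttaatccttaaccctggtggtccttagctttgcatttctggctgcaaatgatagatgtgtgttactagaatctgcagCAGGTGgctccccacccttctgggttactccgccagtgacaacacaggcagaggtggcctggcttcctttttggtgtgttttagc
Dntt held 1 GATA match, whose first base lay 112 bases before the start. Rag1 held an E-box at 135, RUNX matches at 81 and 67, and an Ikaros match at 52 bases, and Ccr9 held an E-box at 85 bases. Windows of the same length held the E-box in 17.2%, the ETS motif in 8.55%, the Ikaros motif in 21.6%, the RUNX motif in 14.0%, the GATA motif in 9.99% and the RBPJ motif in 0.636% of 32851 promoters. None of the 6 motifs was found in the windows of Rag2, Il7r or Notch1; of the 5 annotated starts of Satb1, 1 window held an E-box and an ETS match and another held an Ikaros match. A match describes these letters only and no binding was measured here.

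The name lymphoid priming fitted part of the group. Dntt was highest in KLS and PreGM, and Satb1 was high in Mac1Gr1, KLS and PreGM. Notch1 was higher in KLS and PreGM than in PreMegE and CFUe, but was highest in Mac1Gr1, followed by Ter119. Rag1, Il7r and Ccr9 were instead highest in Ter119, followed by Mac1Gr1, and Rag2 gave no signal above background. Levels below are on a log2 scale on which 0 is the 75th percentile of all signals of an array; they are compared within a probe and never between genes. The ranks of fractions are those of this scaling. With arrays scaled on their spike-in RNAs instead, Ter119 differed from KLS by -1.64 in Notch1 and 0.04 in Ccr9. Mac1Gr1 then differed from KLS by -1.40 in Ccr9 and -1.38 in Satb1.

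**Figure D1:**
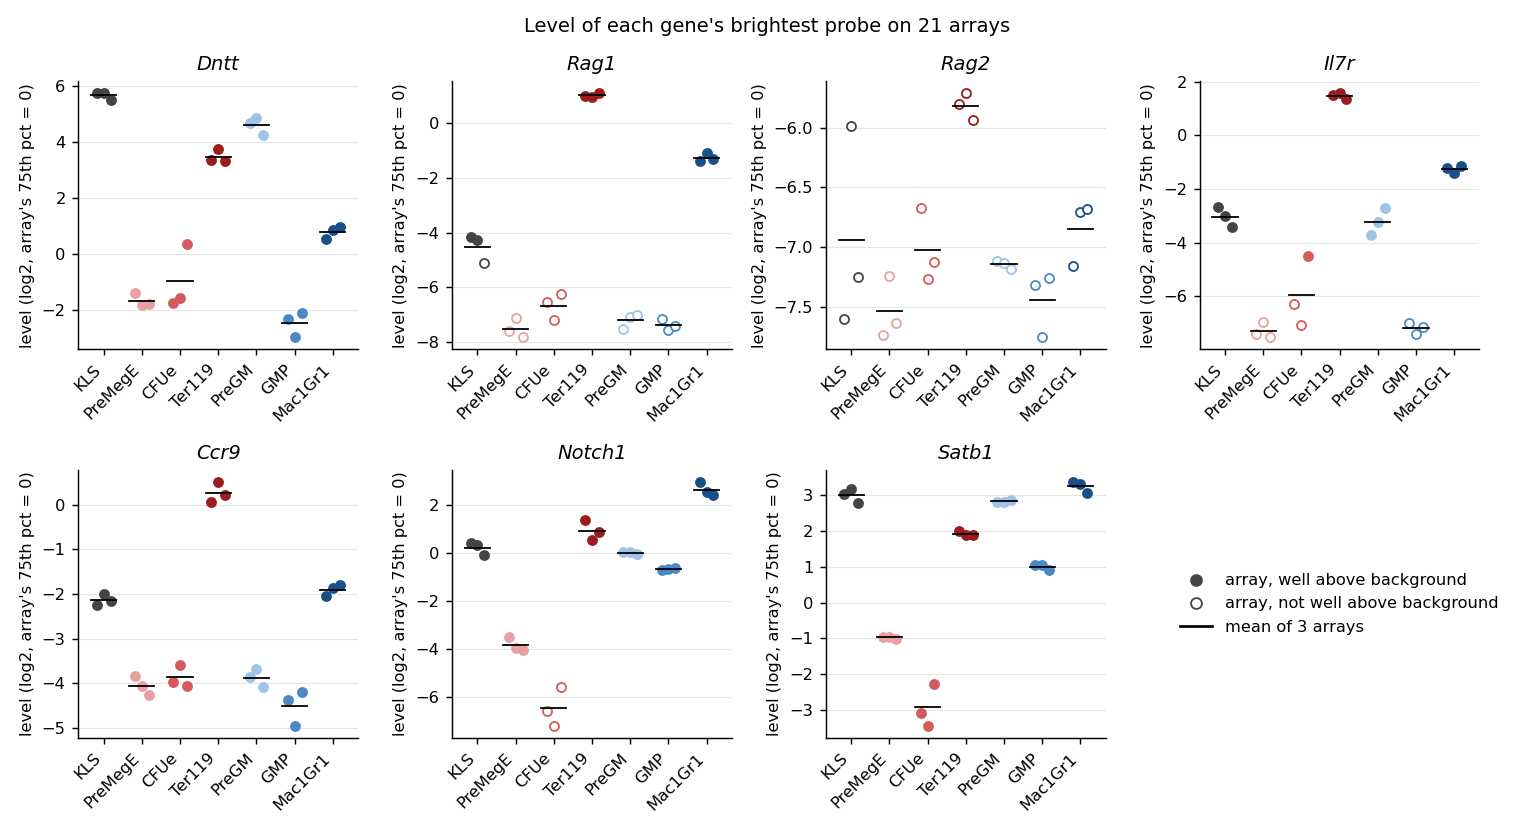
Level of the brightest probe of each gene (vertical axes, log2 scale with the 75th percentile of the array at 0) in 7 fractions; each point is 1 array, open where it was not well above background, and the line is the mean of 3 arrays. Dntt is led by KLS and PreGM, Rag1, Il7r and Ccr9 by Ter119, and Notch1 and Satb1 fall to their lowest levels in PreMegE and CFUe.

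Dntt, the polymerase that adds bases at V(D)J joins, stood at 5.74, 5.74 and 5.51 on the KLS arrays and at 4.66, 4.87 and 4.24 on the PreGM arrays. The Ter119 arrays followed at 3.36, 3.77 and 3.31 and the Mac1Gr1 arrays at 0.55, 0.86 and 0.97. Each of these 4 fractions lay apart from the next, with no overlap between arrays. PreMegE lay at -1.41, -1.82 and -1.78, CFUe at -1.73, -1.55 and 0.36, and GMP at -2.31, -2.96 and -2.09, so that only CFUe and PreMegE overlapped; CFUe replicate 3 was above every other array of those 3 fractions. All 21 arrays were well above background for this probe. The other 2 probes of Dntt were also led by KLS (3.55 ± 0.34 and 0.25 ± 0.66, SD, n = 3), then PreGM (2.47 ± 0.35 and -1.20 ± 0.38) and Ter119 (1.16 ± 0.22 and -2.48 ± 0.06). The first of them was well above background on 2 PreMegE arrays, 1 CFUe array and no GMP array. The second was so on no array of PreMegE, CFUe, GMP or Mac1Gr1. Detection of Dntt in GMP thus rests on 1 probe.

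Rag1, the catalytic subunit of the recombinase, stood at 1.0, 0.98 and 1.1 in Ter119 and at -1.39, -1.09 and -1.31 in Mac1Gr1. KLS arrays read -4.15, -4.27 and -5.12, the last not well above background. These 3 fractions did not overlap. In PreMegE, CFUe, PreGM and GMP no array was well above background, and their values, between -7.82 and -6.25, have no order. A further Rag1 probe read 0.47 ± 0.26 in Ter119 and -2.28 ± 0.23 in Mac1Gr1 (SD, n = 3) but was not well above background on any KLS array, so the KLS signal rests on 1 probe. Rag2, the partner subunit, read between -7.75 and -5.71 over the 21 arrays, all of them not well above background.

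Il7r, the ligand-binding chain that pairs with the common gamma chain, stood at 1.5, 1.57 and 1.35 in Ter119 and at -1.21, -1.42 and -1.14 in Mac1Gr1. KLS read -2.66, -3.01 and -3.42 and PreGM read -3.71, -3.25 and -2.70, and these 2 fractions overlapped. CFUe replicate 3 read -4.52 and by this probe was well above background, whereas the other CFUe arrays (-6.29 and -7.06) and all arrays of PreMegE and GMP were not. Ter119 and Mac1Gr1 thus lay above KLS and PreGM. A further Il7r probe was well above background on all arrays of Ter119 and Mac1Gr1 but on 1 KLS array (replicate 2, -3.86), no PreGM array, CFUe replicate 1 (-4.17) and GMP replicate 3 (-3.96), so the PreGM signal rests on 1 probe.

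Ccr9, the receptor for the thymic and gut chemokine CCL25, stood at 0.07, 0.51 and 0.21 in Ter119. Mac1Gr1 (-2.04, -1.87 and -1.80) and KLS (-2.25, -1.99 and -2.16) overlapped in second place. CFUe, PreGM, PreMegE and GMP followed between -4.95 and -3.59, each overlapping the next in that order. Within the progenitors, PreGM was therefore no higher than CFUe or PreMegE, and KLS stood above all 4.

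Notch1, the receptor, stood at 2.97, 2.53 and 2.43 in Mac1Gr1 and at 1.40, 0.56 and 0.86 in Ter119. KLS (0.44, 0.34 and -0.10) and PreGM (0.05, 0.03 and -0.05) overlapped, and GMP followed at -0.70, -0.65 and -0.61. PreMegE was lower, at -3.52, -3.96 and -4.04, and no CFUe array (-6.58, -7.22 and -5.59) was well above background. The erythroid progenitors thus lay below every other fraction, and the gap from GMP to PreMegE was 3.18.

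Satb1, the chromatin organiser, stood at 3.38, 3.31 and 3.07 in Mac1Gr1, at 3.04, 3.17 and 2.80 in KLS and at 2.82, 2.83 and 2.87 in PreGM, where KLS overlapped both of the others but Mac1Gr1 and PreGM did not overlap. Ter119 read 2.0, 1.89 and 1.88 and GMP 1.04, 1.06 and 0.92. PreMegE lay at -0.95, -0.95 and -1.01 and CFUe at -3.07, -3.45 and -2.27. The 4 lower fractions did not overlap one another, and the order of Satb1 from GMP down was that of Notch1.

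Compared with the other 5 fractions together, KLS and PreGM had more Dntt, Satb1 and Notch1 and less Rag1. A probe was called where limma's adjusted p was under 0.05 and the change at least 2-fold, the p values being adjusted for 29527 tested probes by the Benjamini-Hochberg method. Dntt was higher by 5.29 ± 0.23 (SE, adjusted p 9.77e-12), a 39.2-fold difference, Satb1 by 2.46 ± 0.12 (adjusted p 2.98e-11) and Notch1 by 1.59 ± 0.18 (adjusted p 9.13e-07). The Notch1 difference was 1.27 with dim fractions set at their floor. Rag1 was lower (-1.50 ± 0.16, adjusted p 3.20e-07), and by -1.68 with dim fractions set at their floor. It had entered the test only through Ter119 and Mac1Gr1, where every array was well above background, so its lower level here is no support. Il7r differed by 0.92 ± 0.26 (adjusted p 0.00509) and Ccr9 by -0.19 ± 0.11 (adjusted p 0.148), both short of a call. With dim fractions at their floor the Il7r difference was only 0.21. Without such a floor, Il7r passed 2-fold without KLS replicate 3 (1.01), CFUe replicate 3 (1.06) or PreGM replicate 1 (1.04). In all 4 of 6 tested members were called, 3 of them higher; over all probes tested 19.8% were called and 10.8% were called higher. The median change of the 6 members was 1.25 and that of all probes -0.04.

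Each of the 2 fractions was also set against the other 5. KLS exceeded them in Dntt (5.83 ± 0.30, adjusted p 1.35e-10), Satb1 (2.54 ± 0.16), Notch1 (1.70 ± 0.24) and Il7r (1.01 ± 0.34, adjusted p 0.0163), 4 of 6 members against 23.5% of all probes called and 13.1% called higher. The Il7r value lay at the 2-fold limit, and was 0.31 with dim fractions at their floor. It was called in 17 of 30 other fits and read -0.34 after a normexp background correction. The call was lost without KLS replicate 1 or 2, PreMegE replicate 3, CFUe replicate 1 or 2, Ter119 replicate 3, GMP replicate 2 or Mac1Gr1 replicate 2 (0.83 to 1.003). PreGM exceeded them in Dntt (4.76 ± 0.30), Satb1 (2.38 ± 0.16) and Notch1 (1.48 ± 0.24), and was lower in Rag1 (-2.85 ± 0.21, or -2.06 with dim fractions at their floor) and Ccr9 (-1.06 ± 0.15, not called under spike-in scaling or normexp, at -0.67 and -0.78), 5 of 6 members called against 19.6% of all probes, with 9.85% called higher. Because Rag1 had entered the test only through Ter119 and Mac1Gr1, its lower level in PreGM is no support. Il7r differed by 0.82 ± 0.34 and was not called, and by 0.12 with dim fractions at their floor. Without PreGM replicate 1 Il7r was also called (1.07), and without PreGM replicate 3 Ccr9 was not (-0.95).

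The direction of Rag1 and Ccr9 turned without Ter119 and Mac1Gr1. When KLS and PreGM were set against PreMegE, CFUe and GMP only, a comparison added after the levels had been seen, all 6 tested members were called higher, against 13.5% of all probes called and 10.8% called higher. Ter119 and Mac1Gr1 had by then been seen to hold the 2 highest means of Rag1, Il7r, Ccr9 and Notch1. Leaving them out favoured higher calls, so this count and its adjusted p values are no support. Dntt differed by 6.83 ± 0.25 (adjusted p 2.43e-12), Satb1 by 3.88 ± 0.13, Notch1 by 3.77 ± 0.20 and Il7r by 3.68 ± 0.28 (adjusted p 1.36e-08). Ccr9 differed by 1.14 ± 0.12 (adjusted p 8.81e-07) and Rag1 by 1.32 ± 0.17 (adjusted p 6.61e-06). With fractions not well above background set at their floor, Il7r differed by 2.51, Notch1 by 3.24 and Rag1 by 0.38. In this comparison PreGM alone was not higher in Rag1 (-0.02 ± 0.22, adjusted p 0.950) or called in Ccr9 (0.27 ± 0.16, adjusted p 0.211), while KLS alone gave 2.67 ± 0.22 and 2.01 ± 0.16, the Rag1 value falling to 0.75, short of 2-fold, with dim fractions at their floor. Neither call held under every setting: under normexp Rag1 (0.36) and Ccr9 (0.63) were not called, nor was Ccr9 under quantile scaling (0.96) or in the series table (0.99).

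**Figure D2:**
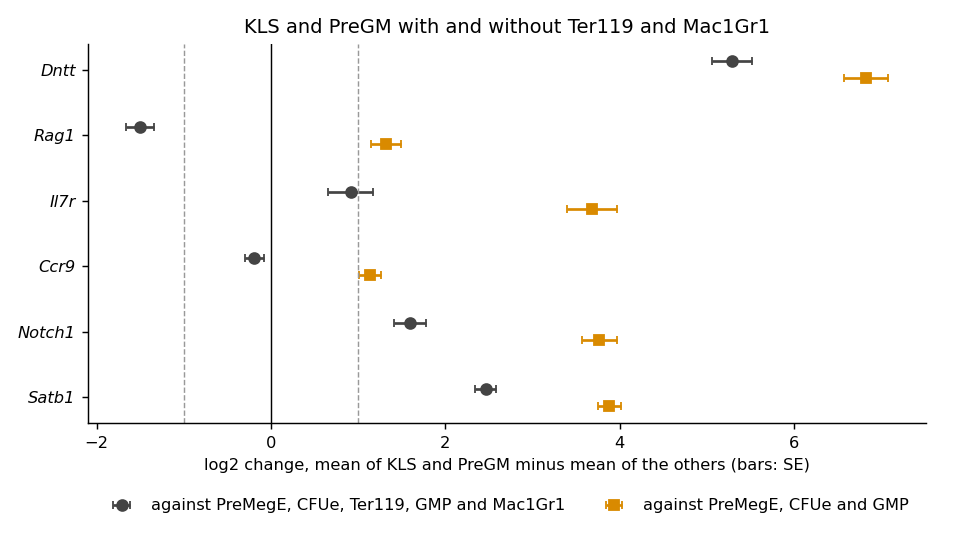
Log2 change of the 6 tested members between the mean of KLS and PreGM and the mean of the other fractions (horizontal axis; bars are the SE of the fit, dashed lines mark 2-fold), with Ter119 and Mac1Gr1 among the others (circles) and without them (squares). Rag1 moves from -1.50 to 1.32 and Ccr9 from -0.19 to 1.14, whereas Dntt, Notch1 and Satb1 are called higher both times. The comparison shown by squares was chosen after the levels had been seen and is no support.

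Along the first myeloid step Ccr9 and Rag1 fell, although neither was called under normexp (-0.95 and -0.38), where Dntt was the member called. From KLS to PreGM 2 of 6 members were called, both lower, against 8.63% of all probes called and 6.52% called lower. Ccr9 fell by 1.74 on the log2 scale (SE 0.19, adjusted p 6.31e-06), a 3.33-fold difference, and Rag1 fell to below background, at least 1.68-fold (adjusted p 1.89e-06). With PreGM at its floor the Rag1 change was -0.75, short of 2-fold. For Rag1 KLS replicate 3 was not well above background, and the further Rag1 probe was not on any array of either fraction. Dntt differed by -1.07 ± 0.39 (adjusted p 0.0550), and became a call under quantile or spike-in scaling, normexp, the series table, a fit of the 2 fractions alone, and without CFUe replicate 1, 2 or 3 (adjusted p 0.0363, 0.0485 and 0.00189). Il7r (-0.19 ± 0.44), Notch1 (-0.22 ± 0.31) and Satb1 (-0.16 ± 0.20) were not called. A list of 12 macrophage markers was also lower in PreGM (mean level 1.51 ± 0.78 in KLS and -3.90 ± 0.22 in PreGM, SD, n = 3), with 12 of 12 genes called lower; its part in the changes of Rag1 and Ccr9 was not tested.

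Every tested member was lower after the first erythroid step. From KLS to PreMegE all 6 were called lower, against 12.4% of all probes called and 8.86% called lower. Dntt fell by 7.33 on the log2 scale (SE 0.39, adjusted p 4.98e-10), a 161-fold difference, Notch1 fell by 4.06 (SE 0.31), Satb1 fell by 3.97 (SE 0.20) and Ccr9 fell by 1.92 (SE 0.19). Il7r and Rag1 fell to below background, at least 5.63-fold (adjusted p 1.03e-06) and at least 2.01-fold (adjusted p 1.90e-07); Rag1 was not called under normexp (-0.51), nor Il7r by its second probe (-2.19, adjusted p 0.0529). The median change of the members was -4.02, and that of all probes 0.13. The 12 macrophage markers were also called lower at this step, 12 of 12 (mean level 1.51 ± 0.78 in KLS and -3.83 ± 0.51 in PreMegE, SD, n = 3). Their part in the changes of the members was not tested.

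PreMegE and PreGM, the earliest fractions of the 2 branches, differed in 4 of the 6 members, all lower in PreMegE, against 12.0% of all probes called and 6.23% called lower. Dntt was 76.5-fold lower (-6.26 ± 0.39), Notch1 14.4-fold (-3.85 ± 0.31) and Satb1 14.0-fold (-3.81 ± 0.20), while Il7r was below background in PreMegE and at least 4.94-fold lower (adjusted p 2.01e-06), though not called by its second probe (-1.84, adjusted p 0.104). Rag1 (-0.30, below background in both) and Ccr9 (-0.18 ± 0.19, adjusted p 0.555) were not called. Slides 2 and 3 carried both fractions, and within them the differences were -6.48 and -6.01 for Dntt, -4.01 and -3.99 for Notch1 and -3.77 and -3.89 for Satb1.

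From PreGM to GMP, 3 of 6 members were called, all lower, against 10.4% of all probes called and 6.36% called lower. Dntt fell by 7.05 on the log2 scale (SE 0.39, adjusted p 1.96e-09), a 132-fold difference, Il7r fell to below background, at least 4.58-fold (adjusted p 3.87e-06), and Satb1 fell by 1.83 (SE 0.20, adjusted p 3.69e-06). Notch1 differed by -0.66 ± 0.31 (adjusted p 0.128) and Ccr9 by -0.63 ± 0.19 (adjusted p 0.0211, short of 2-fold), and both turned positive under spike-in scaling (0.35 and 0.38), under which the median change of all probes was 0.99, against -0.02 in the main scaling. Satb1 was no longer called under spike-in scaling (-0.81). The second Il7r probe, on which no PreGM array and GMP replicate 3 alone of the GMP arrays were well above background, gave -0.89 (adjusted p 0.474). The large fall of Dntt thus came at the second step on the myeloid side and at the first step on the erythroid side.

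From PreMegE to CFUe, 3 of 6 members were called, against 24.7% of all probes. Notch1 fell to below background, at least 2.04-fold (adjusted p 2.01e-06; not called under normexp, -0.45), and Satb1 fell by 1.96 on the log2 scale (SE 0.20, adjusted p 4.47e-07). Il7r was called higher (1.33 ± 0.44, adjusted p 0.0174) although only CFUe replicate 3 was well above background, and turned to -0.43 with dim fractions at their floor; without that array the difference was 0.61 (adjusted p 0.0937), and without PreMegE replicate 3 it was 1.21 (adjusted p 0.0588). Dntt (0.69) passed the limits without CFUe replicate 1 (1.07), and Rag1 (0.84, below background in both fractions) without PreMegE replicate 2 (1.04) or CFUe replicate 2 (1.11). On CFUe replicate 3 granulocyte markers averaged -0.39, against -2.79 and -2.77 on the other CFUe arrays, and B cell markers -3.22 against -4.33 and -3.92; their part in the Il7r and Dntt values of that array was not tested.

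The change of the second step differed between the branches for 4 of the 6 members, against 20.2% of all probes called. The change from PreGM to GMP minus the change from PreMegE to CFUe was -7.74 ± 0.55 for Dntt (adjusted p 2.22e-08), -5.29 ± 0.62 for Il7r (adjusted p 4.81e-06) and 1.96 ± 0.43 for Notch1 (adjusted p 0.00209). For Rag1 it was -1.01 ± 0.38 (adjusted p 0.0470), in 4 fractions that were all below background, and without CFUe replicate 3 it was -0.80 (adjusted p 0.115). No CFUe array was well above background for Notch1, and no PreMegE or GMP array for Il7r. With dim fractions at their floor the Notch1 difference was 0.36, short of 2-fold, and the Il7r difference -1.76. Under normexp the Notch1 difference was -0.14 and not called. Satb1 fell on both sides, with a difference of 0.13 ± 0.28 (adjusted p 0.763), but under spike-in scaling the difference was 1.66 and called.

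All tested members were called higher after both terminal steps, of which Rag1 had entered the test only through Ter119 and Mac1Gr1, where every array was well above background, so that its rise is no support. From CFUe to Ter119 all 6 were called higher, against 57.2% of all probes called and 29.2% called higher: Dntt by 4.46 ± 0.39, Satb1 by 4.85 ± 0.20, Ccr9 by 4.13 ± 0.19 and Il7r, above background on 1 CFUe array, by 7.43 ± 0.44, with Rag1 at least 59.4-fold and Notch1 at least 55.9-fold higher. From GMP to Mac1Gr1 all 6 were called higher, against 56.7% and 29.1%: Notch1 by 3.30 ± 0.31, Dntt by 3.25 ± 0.39, Ccr9 by 2.60 ± 0.19 and Satb1 by 2.24 ± 0.20, with Il7r at least 17.9-fold and Rag1 at least 17.7-fold higher. Under spike-in scaling Ccr9 (0.57) and Satb1 (0.21) were no longer called in Mac1Gr1.

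The mature fractions were then compared with KLS and with each other, also after their levels had been seen. Rag1 had entered the test only through Ter119 and Mac1Gr1, so its excess over KLS is no support. Ter119 exceeded KLS in Rag1 (5.54 ± 0.27, 46.5-fold), Il7r (4.50 ± 0.44, 22.7-fold) and Ccr9 (2.40 ± 0.19, 5.27-fold) and was lower in Dntt (-2.18 ± 0.39) and Satb1 (-1.08 ± 0.20), 5 of 6 members called against 50.3% of all probes; under spike-in scaling Rag1 differed by 3.18 and Il7r by 2.15, Ccr9 (0.04) was no longer called, and Notch1 turned from 0.71 to a call lower (-1.64). With slide as a block Notch1 was called higher (1.22) and Satb1 was not called (-0.61). Mac1Gr1 exceeded KLS in Rag1 (3.25 ± 0.27), Notch1 (2.42 ± 0.31) and Il7r (1.77 ± 0.44) and was lower in Dntt (-4.87 ± 0.39), 4 of 6 against 57.3%; under spike-in scaling only Rag1 remained called higher (1.62), and Ccr9 and Satb1 turned from 0.24 and 0.25 to calls lower (-1.40 and -1.38). Ter119 exceeded Mac1Gr1 in Il7r (2.73 ± 0.44), Dntt (2.69 ± 0.39), Rag1 (2.29 ± 0.27) and Ccr9 (2.16 ± 0.19) and was lower in Notch1 (-1.71 ± 0.31) and Satb1 (-1.33 ± 0.20), 6 of 6 against 41.9%; Satb1 was not called under quantile scaling (-0.92), with slide as a block (-0.88) or in the series table (-0.99).

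B cell, plasmacytoid dendritic cell and granulocyte markers were highest in the same 2 fractions, whereas macrophage markers were highest in KLS (1.51 ± 0.78, against 0.41 ± 0.14 in Mac1Gr1 and -1.11 ± 0.07 in Ter119). The mean level of 11 B cell genes was 2.71 ± 0.26 in Ter119 (2.51 to 3.0), 0.88 ± 0.37 in Mac1Gr1 (0.45 to 1.14) and -2.17 ± 0.17 in KLS, and lay between -4.33 and -2.81 on the arrays of the other 4 fractions (SD, n = 3). All 11 B cell genes were called higher in Ter119 than in CFUe (median 6.06), in Mac1Gr1 than in GMP (median 4.40) and in Ter119 than in Mac1Gr1 (median 1.84). Over all probes 57.2%, 56.7% and 41.9% were called in these comparisons, in either direction. In the first 2 of them 29.2% and 29.1% were called higher. T cell, NK cell and plasmacytoid dendritic cell lists were also highest in Ter119, at -1.23 ± 0.10, 0.02 ± 0.18 and 1.47 ± 0.14, but NK cell markers were second in PreGM (-2.92 ± 0.35) and lower in Mac1Gr1 (-3.28 ± 0.25). Granulocyte markers averaged 6.94 ± 0.06 in Ter119, as high as in Mac1Gr1 (6.89 ± 0.16), and erythroid markers averaged 5.03 ± 0.24 in Ter119 and 0.78 ± 0.03 in CFUe. In a sorted fraction measured in bulk, more cells of a type and more RNA per cell cannot be told apart, and the part of B cells or other leukocytes in the levels of the members was not tested.

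**Figure D3:**
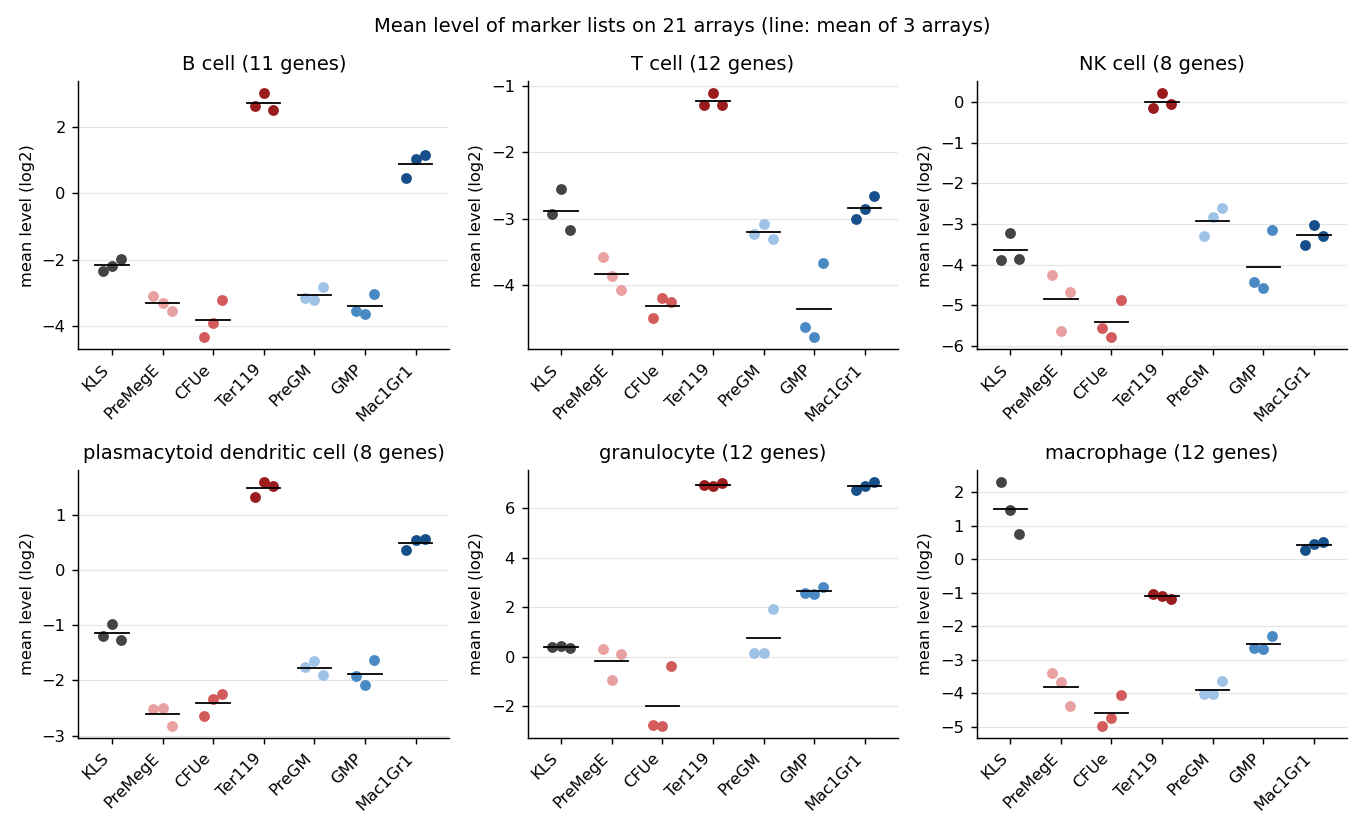
Mean level of 6 fixed marker lists (vertical axes, log2 scale with the 75th percentile of the array at 0) on each of the 21 arrays, with the mean of 3 arrays as a line. B cell, T cell, NK cell and plasmacytoid dendritic cell lists are highest in Ter119, granulocyte markers are equally high in Ter119 and Mac1Gr1, and macrophage markers are highest in KLS.

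Across the 21 arrays, which share their fractions and therefore are not independent, the B cell list followed Rag1 (Pearson's r 0.97), Ccr9 (0.93) and Il7r (0.90) more closely than Notch1 (0.67), Satb1 (0.51) or Dntt (0.37). The pattern was not particular to B cell markers, as plasmacytoid dendritic cell markers gave 0.97, 0.93 and 0.92 and T cell markers 0.86, 0.94 and 0.91 for Rag1, Ccr9 and Il7r. In the same order NK cell markers gave 0.77, 0.81 and 0.85, granulocyte markers 0.83, 0.70 and 0.74, and macrophage markers 0.63, 0.63 and 0.58. Erythroid markers gave 0.54, 0.62 and 0.45, and stem and multipotent progenitor markers -0.26, -0.12 and -0.06. Among the members themselves the highest values were those of Notch1 and Satb1 (0.96), Rag1 and Ccr9 (0.95), Rag1 and Il7r (0.91) and Il7r and Ccr9 (0.90). Dntt reached 0.69 with Il7r, 0.67 with Satb1, 0.54 with Ccr9, 0.51 with Notch1 and 0.39 with Rag1, and Il7r reached 0.69 with Notch1. These correlations are descriptions of 7 fractions and carry no test.

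The genes whose levels followed each member most closely were taken from 8796 genes whose fraction means spanned at least 4-fold. For Dntt they were Whrn (r 0.94), Flt3 (0.92), the cytokine receptor of early lymphoid and multipotent progenitors, and Hes5 (0.92), a transcriptional target of Notch. For Rag1 they included Gimap3 (0.99) and Pou2af1 (0.99), a B cell coactivator that is also on the B cell list. For Il7r they included Blnk (0.96), the B cell linker, and H2-Ab1 (0.95), an MHC class II chain, and for Ccr9 they were Tead2 (0.98), Alpl (0.98) and Mzb1 (0.97), a B cell and plasma cell chaperone. Notch1 was followed by Fmnl2 (0.99), Lcp1 (0.99), the leukocyte actin bundler, and Rassf2 (0.98), and Satb1 by Arid5a (0.98), Cd244a (0.97) and Cd302 (0.96).

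Around the recombinase, 3 of 13 tested genes of V(D)J recombination and end joining were called between KLS with PreGM and the rest (19.8% of all probes were), 1 higher and 2 lower, with a median change of 0.24 (-0.04 over all probes). Polm, a DNA polymerase of end joining related to Dntt, was lower by 3.48 (change -3.48 ± 0.09), the opposite direction to Dntt; its mean level was -2.52 ± 0.19 in KLS, -2.13 ± 0.14 in PreGM, 2.39 ± 0.28 in Ter119 and 2.42 ± 0.23 in Mac1Gr1 (SD, n = 3). Lig4, the ligase of end joining, was lower (-1.53 ± 0.21) and Atm, the DNA damage kinase, higher (1.099 ± 0.12). A single gene of the list was called in PreGM vs KLS (lower), in PreMegE vs KLS (higher) and in GMP vs PreGM (higher). Over all probes 8.63%, 12.4% and 10.4% were called in these comparisons.

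Of 12 further genes of IL-7 receptor signalling, 2 were called higher in KLS and PreGM and none lower (median 0.36). Over all probes 19.8% were called and 10.8% were called higher. Jak3, the kinase bound to the common gamma chain, differed by 2.44 ± 0.11 and Bcl2, the survival factor downstream, by 1.87 ± 0.10. Il2rg, the common gamma chain itself, differed by 0.997 ± 0.10 (adjusted p 1.13e-07, just short of 2-fold), with 0.82 ± 0.16 in KLS and -0.18 ± 0.18 in PreGM (SD, n = 3). Crlf2, which pairs with Il7r in the receptor for thymic stromal lymphopoietin, differed by 0.41 ± 0.09 and was above background everywhere, from 3.02 ± 0.26 in CFUe to 7.11 ± 0.12 in Mac1Gr1. The list had 3 genes called lower in PreGM vs KLS, 1 higher and 1 lower in PreMegE vs KLS, and 2 lower in GMP vs PreGM. Over all probes 6.52% were called lower in the first, 12.4% called in the second and 6.36% called lower in the third.

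Of 24 tested genes of the Notch pathway, 7 were called higher in KLS and PreGM and 3 lower (median 0.17), against 19.8% of all probes called and 10.8% called higher. The ligand Jag2 differed by 4.26 ± 0.34, with -0.20 ± 0.58 in KLS and -1.81 ± 0.98 in PreGM and no array of Ter119 or Mac1Gr1 well above background. Hey1, a transcriptional target, differed by 2.70 ± 0.23, Mfng, a glycosyltransferase that modifies the receptor, by 2.27 ± 0.11, and Dtx1, a further target, was lower (-2.53 ± 0.36). Notch2, the related receptor, differed by -0.37 ± 0.07 and unlike Notch1 kept levels between 1.79 and 4.70 in every fraction. The list had 2 genes called higher and 6 lower in PreGM vs KLS, 1 higher and 6 lower in PreMegE vs KLS, and 8 lower in GMP vs PreGM. Over all probes 8.63%, 12.4% and 10.4% were called in these comparisons, and 6.52%, 8.86% and 6.36% were called lower. Under spike-in scaling the GMP vs PreGM count became 6 higher and 3 lower, where 14011 of 29527 probes were called higher and 505 lower.

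Of 19 tested transcription factors of lymphoid progenitors, 9 were called higher in KLS and PreGM and 2 lower (median 0.60). The shares over all probes were 19.8% called and 10.8% called higher. The largest changes were those of Ikzf2 (2.68 ± 0.28), an Ikaros family member, Irf8 (2.54 ± 0.35), a factor of B cell and myeloid development, Sox4 (2.53 ± 0.17), needed for early B cells, and Gfi1 (2.12 ± 0.37), a repressor active in lymphoid and granulocytic cells. In PreMegE vs KLS 4 of these factors were called lower, in PreGM vs KLS 2 higher, and in GMP vs PreGM 6 lower and 1 higher (2 lower and 3 higher under spike-in scaling). In the main scaling 12.4%, 8.63% and 10.4% of all probes were called in these comparisons, in either direction.

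Of 17 surface and signalling genes of lymphoid progenitors, 7 were called in KLS and PreGM, all higher (median 0.35), against 19.8% of all probes called and 10.8% called higher. Cd27, a TNF receptor family member, differed by 4.39 ± 0.23, Flt3 by 3.66 ± 0.15 and Lsp1, an actin-binding leukocyte protein, by 1.73 ± 0.30. Flt3 read 2.08 ± 0.34 in KLS and 0.77 ± 0.12 in PreGM, and between -2.78 and -1.01 on average elsewhere, with Ter119 highest of the rest as for Dntt. Ccl25, the ligand of Ccr9, differed by -0.13 ± 0.08 (adjusted p 0.169). In PreMegE vs KLS 10 of the 17 were called lower, in PreGM vs KLS 4 lower, and in GMP vs PreGM 6 lower (3 lower and 5 higher under spike-in scaling). In the main scaling 8.86%, 6.52% and 6.36% of all probes were called lower in these comparisons. All lists were written with earlier results of these data known and are given as counts and medians, with no test of a list.

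**Figure D4:**
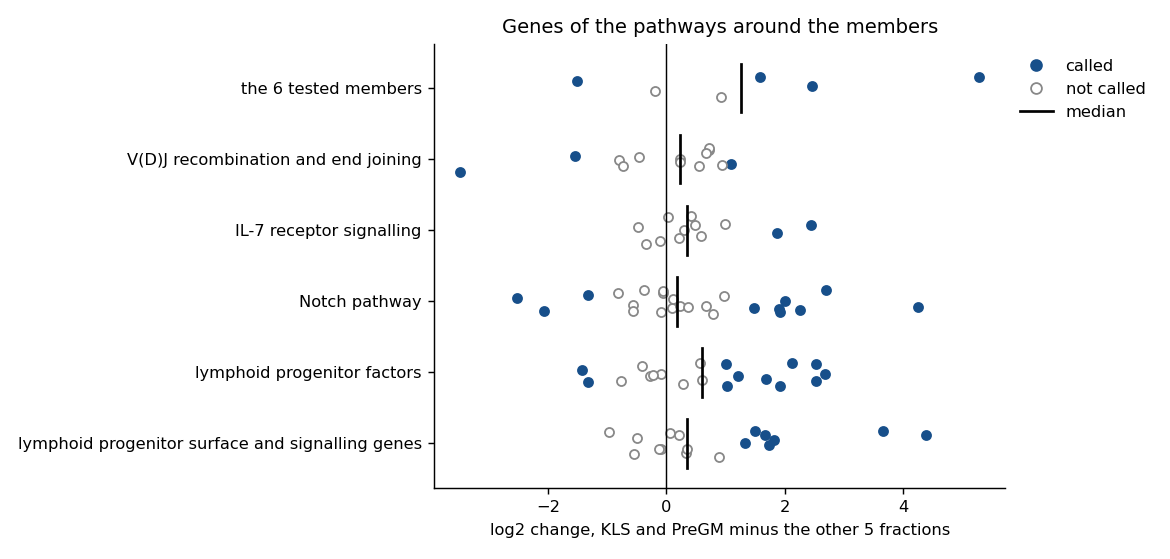
Log2 change of each tested gene between KLS with PreGM and the other 5 fractions (horizontal axis), for the 6 tested members and 5 lists around them; filled points were called (adjusted p under 0.05 and at least 2-fold), the line is the median, and the vertical spread within a list has no meaning. The medians of the 5 lists lie between 0.17 and 0.60, and Polm and Jag2 are the outermost points of their lists.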

How the data were processed

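Total RNA of the sorted fractions was labelled with Cy3 and hybridised with spike-in RNAs, 1 sample per array. The authors read each array with Feature Extraction 10.7.1.1, and the intensity used here is its linear, background-corrected signal as deposited. A second deposited table of log2 values, normalized by the authors, served only as an alternative. Here, log2 intensities were centred on the 75th percentile of each array over 43379 non-control spots; 80 to 283 outlier spots per array were left out, none was saturated, and spots of a probe were averaged. The number of arrays limits the precision. Between 56.4% and 77.4% of spots were well above background, and all 21 arrays correlated best with their own fraction.

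Of 41174 probes, 29527 exceeded background on every array of some fraction and entered limma 3.58.1 (R 4.3.3), where lmFit and eBayes gave two-sided tests from 1 fit over all fractions with no block; the median residual SD was 0.262 with 14 residual degrees of freedom. Adjusted p values are limma's, Benjamini-Hochberg adjusted over the probes tested. For a fraction with no array well above background, each array's value was raised, where lower, to the weakest signal that still counted as detected on that array (a floor between -5.92 and -3.91), and a fold is written as "at least". Symbols came from RefSeq accessions and the GRCm38.p6 table (26690 probes, 64.8%); the array design names mm9, so no probe coordinates are given. Promoters came from RefSeq on GRCm38.p6; all 7 members matched.

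The members, the gene lists and the tests were chosen with earlier results of these data known. Named genes are the members, at most 4 called genes per list with the largest change in the main comparison, partners of the members (Il2rg, Crlf2, Notch2, Polm, Ccl25), and the 3 genes most correlated with each member; some genes that this rule names are not reported here. Adam10, Igll1, Ptcra and Ahsp were among the listed genes with no probe here, and Dll1 and Jag1 among those not tested. All arrays were scanned on 1 day, on 9 slides. The deviations of same-numbered replicates of different fractions had a median r of 0.002 (-0.43 to 0.37 over 63 pairs, 21 of them over 0.1). Those of different-numbered replicates had a median r of 0.008 (-0.33 to 0.52 over 126 pairs, 31 of them over 0.1), and no pairing was used. The fit was also run on simulated data, and the outcome is not reported here. Alternatives were quantile and spike-in scaling (7 of 10 spike-ins), normexp with an offset of 50 on the median signal, no dim-probe filter, slide as a block, the replicate block, no minimum fold, the authors' log2 table, other probes, fits restricted to the fractions compared, and each array left out in turn. Plots were made in Python 3.11.15 (matplotlib 3.10.9, pandas 2.3.3).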

Additional observations from a re-analysis of the deposited data

Results flagged for a closer look

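The change of the second step, from PreGM to GMP on the myeloid side and from PreMegE to CFUe on the erythroid side, differed between the branches by a test of the difference itself for 4 members. For Dntt the myeloid change minus the erythroid change was -7.74 (7.05 lower in GMP than in PreGM, with CFUe 0.69 above PreMegE, where the level was already low). For Il7r it was -5.29, or -1.76 with dim fractions set at their floor, since PreMegE and GMP had no array well above background. For Notch1 it was 1.96, or 0.36 at the floor, with no CFUe array well above background. For Rag1 it was -1.01 between fractions that were all below background, so it gives no fold, and it was called in 8 of 31 other fits.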

How the results depend on the processing

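Of the single-gene values under the alternatives, apart from the comparisons added for the mature fractions, 1905 kept their direction and their side of the threshold, 29 gained and 59 lost a call, and 31 turned. Dntt was called in all 31 alternatives of the main comparison (5.04 to 6.57) and Satb1 in all 29 (2.20 to 3.16), whereas Notch1 lost its call under normexp (0.71) and Rag1 under spike-in scaling (-0.81). Counts of called members moved by over 1.5 times under normexp, to 2 in KLS vs the other fractions, 3 in PreGM vs the other fractions, 1 in PreGM vs KLS (Dntt, not among the main calls), 1 in CFUe vs PreMegE and 2 in the second step, and with the second brightest probes to 2 in the second step. Without single arrays the counts ranged from 4 to 5 in the main comparison, 3 to 4 in KLS vs the other fractions, 4 to 6 in PreGM vs the other fractions, 2 to 3 in PreGM vs KLS, 2 to 4 in CFUe vs PreMegE and 3 to 4 in the second step, and stayed at 6, 4, 3, 6 and 6 in PreMegE vs KLS, PreMegE vs PreGM, GMP vs PreGM, Ter119 vs CFUe and Mac1Gr1 vs GMP. With the replicate number as a block the second step had 3 calls in place of 4 and every other count was as before.

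Beside the comparisons of the mature fractions with KLS given above, in which Satb1 in Mac1Gr1 vs KLS also turned under quantile scaling (-0.21) and in the series table (-0.22), the values that turned were, under spike-in scaling, Ccr9 in the main comparison (0.51), Rag1 in KLS vs the other fractions (0.85), Rag1, Ccr9 and Notch1 in GMP vs PreGM (0.85, 0.38 and 0.35), Ccr9 in CFUe vs PreMegE (-0.33), and Rag1 and Ccr9 in the second step (0.52 and 0.71). Under normexp they were Il7r in the main comparison, KLS and PreGM vs the other fractions (each -0.34) and PreGM vs KLS (0.0011), and Notch1 (-0.14) and Satb1 (-0.56) in the second step. With slide as a block Il7r (0.073), Notch1 (0.41) and Satb1 (0.24) turned in PreGM vs KLS and Rag1 in GMP vs PreGM (0.070). In the series table Il7r turned in PreGM vs KLS (0.0043) and Satb1 in the second step (-0.13), and under quantile scaling Satb1 turned in the second step (-0.21). The second Il7r probe gave -0.42, -0.24 and -0.60 in the main comparison, KLS and PreGM vs the other fractions. Without Ter119 and Mac1Gr1, Rag1 and Ccr9 turned in the main comparison (1.32 and 1.14), Rag1 in KLS (2.67) and Ccr9 in PreGM (0.27). Rag1 in KLS vs the other fractions turned without KLS replicate 3 (0.15), Satb1 in the second step without CFUe replicate 2 (-0.13, and up to 0.46 without CFUe replicate 3), and Il7r in PreGM vs KLS without PreGM replicate 1 (0.054, and down to -0.45 without PreGM replicate 3). The cause was not tested.

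Over all probes, the main comparison called 5859, against 10168 under spike-in scaling (9371 higher and 797 lower, with a median change of 0.66 over all probes), 2633 under normexp and 19620 with no minimum fold. Within slides, Dntt was higher in KLS or PreGM on all 6 slides that carried them with another fraction (3.24 to 8.48). Notch1 and Satb1 were higher on 4 of the 6 and lower on slides 4 and 5, where the other fraction was Mac1Gr1 (Notch1 -2.40 and -2.19, Satb1 -0.25 and -0.14). PreGM and KLS shared no slide. Probes near background limit Rag1, Rag2 and Il7r in the progenitors.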
